A study of Mus musculus with 12 samples.

Results

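MHC class I presentation genes were measured in mouse hippocampus. The 10 genes are 5 heavy chains (H2-D1, H2-K1, H2-T23, H2-Q4 and H2-M3), the light chain B2m, the peptide transporter Tap1 and Tap2, the loading factor Tapbp and the transactivator Nlrc5. They were chosen by symbol from a table of 54427 genes, and all 10 were among the 17227 genes with enough counts to be tested. The choice was made with levels and fold changes from an earlier fit of these libraries in view. The fold changes and p-values below therefore describe the members and are no independent evidence that the pathway changed.

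RNA came from 12 libraries, 3 from each of 4 genotypes. WT is wild type. 5xFAD mice carry a mutant human APP transgene under the neuronal Thy1 promoter and are a widely used model of amyloid deposition. Ulk1OV is given as overexpression of Ulk1, a kinase that starts autophagy, and 5xFAD;Ulk1OV carries both labels. The sources used here give neither the age of the mice nor the construct and promoter behind Ulk1OV. Nothing in the labels ties a library to an animal of its own, so every p-value rests on the spread between these libraries, whatever its source. The tissue is bulk hippocampus, and in bulk RNA fewer cells of a type and less RNA per cell cannot be told apart.

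Class I molecules carry short peptides from inside the cell to its surface. The proteasome makes the peptides, the transporter of Tap1 and Tap2 pumps them into the endoplasmic reticulum, and tapasin (Tapbp) helps to load them onto a heavy chain paired with beta-2-microglobulin (B2m). CD8 T cells and natural killer cells read the result. In brain the genes are expressed at low levels by endothelium and microglia and also by neurons, where class I molecules have been studied in synapse remodelling, and interferons raise most of them. Nlrc5 acts at a shared promoter module of X and Y boxes.

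The promoters of the members are shown because the levels of 9 members were positively correlated across libraries, whereas those of B2m were not, as given further on. RefSeq promoters of GRCm38.p6 were matched for 8 members, not Tap2 or Nlrc5. The windows are the 250 bases before the start of H2-D1 (chr17:35262844-35263093, plus strand), H2-K1 (chr17:34000348-34000597, minus strand), H2-Q4 (chr17:35379367-35379616, plus strand), H2-T23 (chr17:36032702-36032951, minus strand) and B2m (chr2:122147437-122147686, plus strand), each written 5′ to 3′ on the gene's strand. Starts are those of RefSeq, whereas the gene spans given further on are those of GENCODE and can begin elsewhere. By those spans the windows of H2-D1 and Tapbp lie inside the gene. Those of H2-T23, H2-M3, Tap1 and B2m reach into it, that of B2m only with its last base. Capitals mark matches on either strand. The X2 box core was searched as TGACG, the Y box as CCAAT, an interferon response element as GAANNGAAA and an NF-kappaB site as GGGNNTTCC.
H2-D1: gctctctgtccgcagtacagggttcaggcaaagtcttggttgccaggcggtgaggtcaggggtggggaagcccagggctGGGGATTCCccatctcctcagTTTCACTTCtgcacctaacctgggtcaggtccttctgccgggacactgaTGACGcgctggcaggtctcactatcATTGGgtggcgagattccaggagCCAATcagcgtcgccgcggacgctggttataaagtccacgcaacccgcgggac
H2-K1: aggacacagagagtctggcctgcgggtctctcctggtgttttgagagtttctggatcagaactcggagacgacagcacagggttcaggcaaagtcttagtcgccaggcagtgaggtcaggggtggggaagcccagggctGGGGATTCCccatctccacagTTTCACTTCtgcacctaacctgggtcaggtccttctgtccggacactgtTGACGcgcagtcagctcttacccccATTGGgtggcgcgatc
H2-Q4: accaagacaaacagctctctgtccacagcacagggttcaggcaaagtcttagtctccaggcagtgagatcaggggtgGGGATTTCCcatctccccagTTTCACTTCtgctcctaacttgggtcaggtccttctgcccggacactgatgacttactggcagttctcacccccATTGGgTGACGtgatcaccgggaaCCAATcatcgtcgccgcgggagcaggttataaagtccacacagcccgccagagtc
H2-T23: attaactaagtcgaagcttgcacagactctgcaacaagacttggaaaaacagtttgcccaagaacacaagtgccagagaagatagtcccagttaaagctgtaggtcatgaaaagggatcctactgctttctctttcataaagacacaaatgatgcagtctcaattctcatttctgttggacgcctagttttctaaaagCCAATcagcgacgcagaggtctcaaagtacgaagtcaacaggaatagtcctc
B2m: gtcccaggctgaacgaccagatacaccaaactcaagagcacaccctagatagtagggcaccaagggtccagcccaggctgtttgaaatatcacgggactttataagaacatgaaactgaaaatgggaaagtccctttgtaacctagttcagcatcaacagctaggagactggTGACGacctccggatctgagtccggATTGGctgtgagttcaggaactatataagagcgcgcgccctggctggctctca
The windows of H2-D1, H2-K1 and H2-Q4 held all 4 motifs, each with the NF-kappaB site just upstream of the interferon response element. Of the letters searched, B2m held an X2 core followed by an inverted Y box, and H2-T23 held a Y box alone. The B2m window also holds gaaactgaaa, with a wider gap between GAA and GAAA than the search allowed. That stretch was not marked or counted, and the wider gap was not searched in other promoters. The X2 core was found in 6 of 8 members and in 17.861% of 27025 promoters of the same length, the Y box in 8 of 8 and 34.464%, the interferon response element in 4 of 8 and 6.339%, and the NF-kappaB site in 3 of 8 and 4.881%. An X2 core with an inverted Y box 15 to 40 bases downstream, a pair that contains both single motifs, was found in H2-D1, H2-K1, H2-M3 and B2m (4 of 8, against 0.784% of promoters). These are matches of letters and not bound sites, and a window without a match says nothing about the factor. B2m carried the same X2 and Y pair as H2-D1 and H2-K1, and its RNA did not follow the heavy chains in the values below. Whether any of these motifs bears on the levels was not tested.

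**Figure D1:**
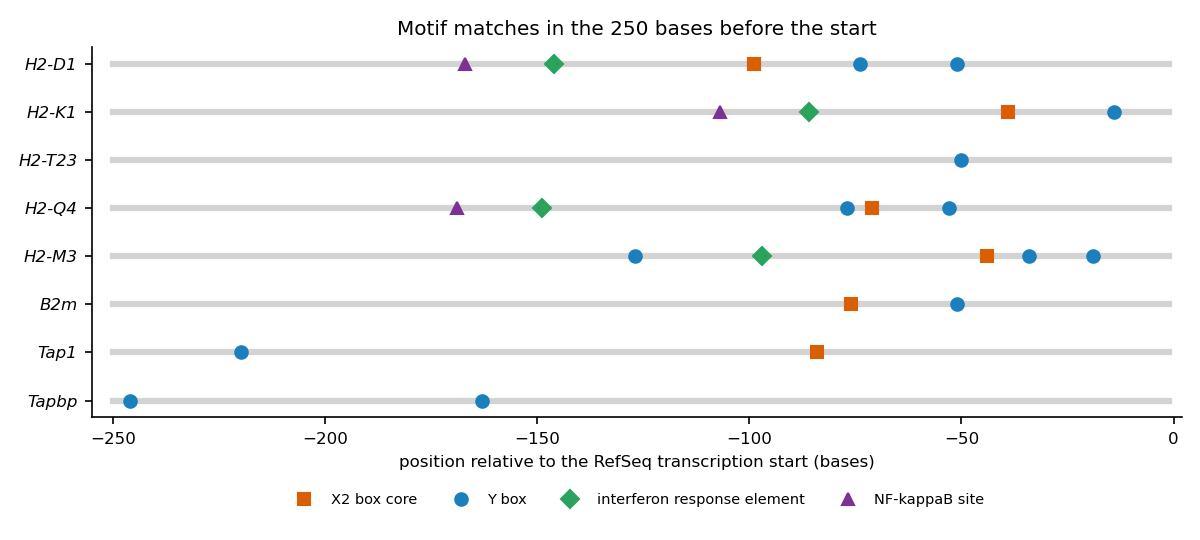
Motif matches in the 250 bases before the RefSeq start of 8 members, by distance from the start in bases. H2-D1, H2-K1 and H2-Q4 share the order of NF-kappaB site and interferon response element, and B2m has an X2 core and a Y box.

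The libraries held 16149992 to 18547132 counts. Ulk1 lay at 84.6 to 102 CPM (counts scaled to library size) in the 6 libraries with the Ulk1OV label and at 63.5 to 86.3 in the others. The library labelled 5xFAD;Ulk1OV replicate 3 did not match its 5xFAD label: App, which transgene reads can reach, stood at 1310 CPM, against 2201 to 2667 in the other 5 libraries with a 5xFAD label and 1241 to 1493 in those without. Its values are set apart below (open circles in the plots). Markers of neurons in general summed to 4298 to 5598 CPM and markers of hippocampal granule and pyramidal neurons to 327.8 to 509.4 CPM. WT replicate 3 and Ulk1OV replicate 1 stood apart in choroid plexus markers, with 6259 and 4211 CPM against 24.1 to 335.5 in the other 10 libraries. Some genes split the libraries into WT with 5xFAD;Ulk1OV and 5xFAD with Ulk1OV: Atp5k, named after its values were seen, was at 63 to 69.7 CPM in the first set and 7.9 to 38.3 in the second. That split coincides with the interaction contrast used below, and in these libraries they cannot be told apart.

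Scaled by exon length, B2m was by far the most abundant member, with 139 ± 12.8 CPM per kb in WT (SD, n = 3). H2-D1 followed with 22.1 ± 1.7 and H2-K1 with 16.2 ± 1.51 CPM per kb, the classical heavy chains that present to CD8 T cells. Tapbp had 9.15 ± 0.369, H2-T23 4.82 ± 0.827 and Tap2 2.22 ± 0.172 CPM per kb. These neighbours in the order were separated by more than their SDs, whereas H2-Q4 (1.71 ± 0.179) and H2-M3 (1.68 ± 0.102) could not be ordered. Tap1 had 0.861 ± 0.111 CPM per kb. Nlrc5 was lowest with 0.159 ± 0.038, which rested on 10 to 34 counts per library.

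H2-T23 encodes Qa-1, a non-classical heavy chain that shows leader peptides of other class I molecules to natural killer receptors. It lies on chromosome 17 (GRCm38, 36029773 to 36032855, minus strand). Its level in WT replicates 1, 2 and 3 was 16.4, 13.8 and 11.6 CPM. With 5xFAD alone it was 7.29, 10.8 and 8.33 CPM, with Ulk1OV alone 6.99, 7.49 and 6.7, and with both 14.1, 16.5 and 12.8. All 6 libraries of WT and 5xFAD;Ulk1OV lay above all 6 of 5xFAD and Ulk1OV, and no other member separated the libraries in that way. H2-T23 fell in Ulk1OV against WT by 0.98 ± 0.18 on the log2 scale (SE, edgeR adjusted p = 0.0222), a level 0.507 times that of WT. Against Ulk1OV it rose in 5xFAD;Ulk1OV by 1.04 ± 0.18 (edgeR adjusted p = 0.016). The library that went against its label, at 12.8 CPM, sat with WT and its own group.

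H2-D1 lies on chromosome 17 (35262730 to 35267499, plus strand). It measured 61.6, 56.2 and 52.9 CPM in WT libraries, 49.3, 57.5 and 52.8 with 5xFAD alone, 40.4, 44.2 and 31.2 with Ulk1OV alone and 65.9, 59.7 and 56.9 with both. The Ulk1OV libraries were below every other library, while 5xFAD overlapped WT. H2-D1 fell in Ulk1OV against WT by 0.56 ± 0.12 (log2, edgeR adjusted p = 0.0287), and it rose in 5xFAD;Ulk1OV against Ulk1OV by 0.66 ± 0.12 (edgeR adjusted p = 0.016). H2-K1, the other classical heavy chain (chromosome 17, 33996017 to 34000347, minus strand), measured 51.2, 42.7 and 49.1 CPM in WT libraries, 31.8, 46.5 and 43.6 with 5xFAD alone, 29.7, 38.9 and 30.8 with Ulk1OV alone and 51.1, 48.8 and 41.5 with both. Its Ulk1OV libraries were below those of WT and 5xFAD;Ulk1OV without overlap. The differences of -0.52 ± 0.15 (edgeR adjusted p = 0.0556) and 0.51 ± 0.15 (edgeR adjusted p = 0.0571) did not pass the test in these comparisons, whereas DESeq2 called both (DESeq2 adjusted p = 0.0146 and 0.0182), as did edgeR without a filter on low counts.

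H2-Q4 encodes a non-classical heavy chain of the Qa region (chromosome 17, 35379617 to 35385290, plus strand). It measured 4.94, 4.03 and 4.31 CPM in WT libraries, 2.04, 4.16 and 2.98 with 5xFAD alone, 1.87, 2.54 and 1.58 with Ulk1OV alone and 4.02, 3.68 and 3.01 with both. It fell in Ulk1OV against WT by 1.15 ± 0.28 (log2, edgeR adjusted p = 0.0374), and the groups did not overlap. Against Ulk1OV, 5xFAD;Ulk1OV differed by 0.84 ± 0.28 (edgeR adjusted p = 0.0843), also without overlap. H2-M3 presents N-formylated peptides such as those of bacteria and mitochondria (chromosome 17, 37270220 to 37274484, plus strand). It had 2.27 to 2.56 CPM in WT libraries, 1.41 to 2.54 with 5xFAD alone, 1.14 to 2.24 with Ulk1OV alone and 2.17 to 3.09 with both, and it passed the test in no comparison.

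Heavy chain reads can be shared between paralogs. Of the distinct 100-base stretches in the transcripts, 3.589% in H2-D1, 3.152% in H2-T23, 2.159% in H2-Q4 and 0.957% in H2-K1 also occur in transcripts of another gene, and in H2-M3 none do. Counts of the first 4 are uncertain for that reason. The shares are of exact stretches and not of reads, so they do not bound that uncertainty. How reads with several matches were counted was not stated in the sources used here. H2-D1 shares most with H2-Q1 and H2-K1 with H2-Q10, which had 0 to 0.169 CPM.

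B2m, the light chain of class I molecules, had another pattern of levels (chromosome 2, 122147686 to 122153083, plus strand). It measured 119, 131 and 109 CPM in WT libraries, 127, 178 and 156 with 5xFAD alone, 125, 157 and 128 with Ulk1OV alone and 124, 121 and 119 with both. Its highest mean stood in 5xFAD. In both 5xFAD and Ulk1OV the mean of B2m was above that of WT and those of the other 9 members were below. None of its differences passed the test, at 0.36 ± 0.12 in 5xFAD against WT (log2, edgeR adjusted p = 0.278) and -0.34 ± 0.12 in 5xFAD;Ulk1OV against 5xFAD (edgeR adjusted p = 0.184, with no overlap between the groups).

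The ratio of H2-D1 plus H2-K1 to B2m, on CPM per kb, put the heavy and light chains side by side. It was 0.278 ± 0.0333 in WT (SD, n = 3), 0.194 ± 0.009 with 5xFAD alone, 0.165 ± 0.013 with Ulk1OV alone and 0.28 ± 0.0185 with both. The 6 libraries of WT and 5xFAD;Ulk1OV lay between 0.239 and 0.299 and the other 6 between 0.152 and 0.202, with no overlap. The ratio was formed after the levels had been seen, so it is a description. In 5xFAD the levels of H2-D1 overlapped those of WT and the mean of B2m was highest, whereas in Ulk1OV H2-D1 was lowest.

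**Figure D2:**
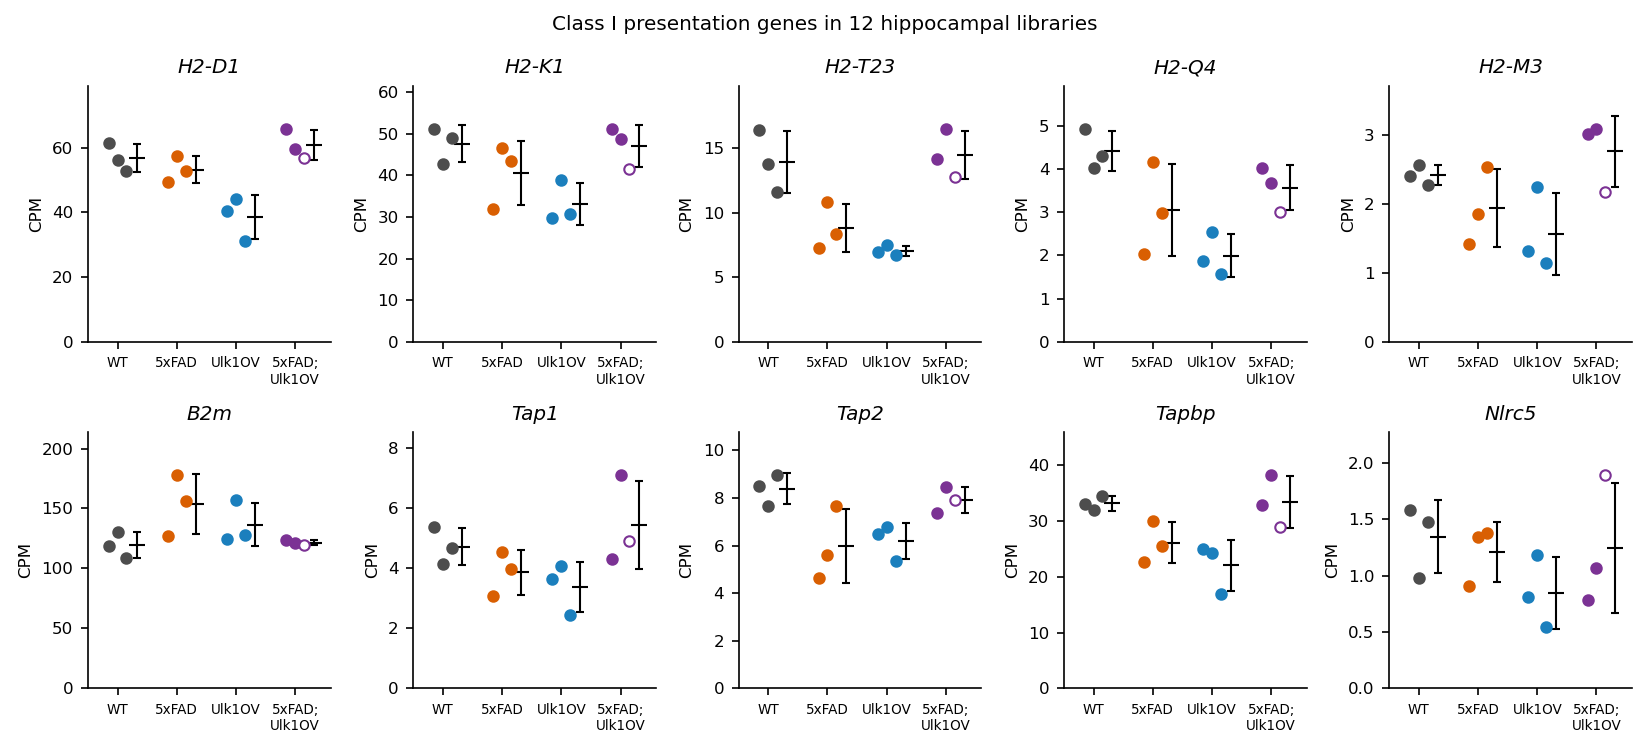
CPM of the 10 members in each library (points), with group mean and SD (bars, n = 3); the open circle is the library labelled 5xFAD;Ulk1OV replicate 3. H2-T23 separates WT and 5xFAD;Ulk1OV (11.6 to 16.5 CPM) from 5xFAD and Ulk1OV (6.7 to 10.8), and B2m has its highest mean in 5xFAD.

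Tapbp encodes tapasin, which bridges the transporter and the empty heavy chain (chromosome 17, 33915899 to 33929292, plus strand). It measured 33.1, 31.9 and 34.6 CPM in WT libraries, 22.7, 30 and 25.6 with 5xFAD alone, 25, 24.4 and 16.8 with Ulk1OV alone and 33, 38.3 and 29 with both. It fell in Ulk1OV against WT by 0.59 ± 0.16 (log2, edgeR adjusted p = 0.0458), and it rose in 5xFAD;Ulk1OV against Ulk1OV by 0.60 ± 0.16 (edgeR adjusted p = 0.0392). Neither comparison had overlapping groups. Exons of Tapbp overlap those of Zbtb22 on the same strand (5366 counts over all libraries, against 6111 of Tapbp), so its count may take in or lose reads there.

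Tap1 and Tap2, the subunits of the transporter, passed the test in no comparison of groups. Tap1 (chromosome 17, 34187553 to 34197225, plus strand) had 4.14 to 5.35 CPM in WT libraries, 3.05 to 4.55 with 5xFAD alone, 2.45 to 4.07 with Ulk1OV alone and 4.3 to 7.09 with both. Tap2 (chromosome 17, 34203527 to 34216321, plus strand) had 7.68 to 8.96, 4.64 to 7.66, 5.34 to 6.78 and 7.38 to 8.47 CPM in the same order. In both, all Ulk1OV libraries were below those of WT and of 5xFAD;Ulk1OV. Exons of Tap1 overlap Psmb9 on the opposite strand, and with the strand setting unknown their reads cannot be told apart. Nlrc5 (chromosome 8, 94434356 to 94527272, plus strand) had 0.981 to 1.59 CPM in WT libraries, 0.904 to 1.38 with 5xFAD alone, 0.545 to 1.18 with Ulk1OV alone and 0.782 to 1.89 with both. The groups of Nlrc5 overlapped in every comparison, and no difference passed the test. The highest Nlrc5 value was in the library that went against its label.

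Ulk1OV against WT asks what Ulk1 overexpression does without amyloid. Calls were made by the edgeR quasi-likelihood test at a Benjamini-Hochberg adjusted p, over all tested genes, below 0.05. H2-D1, H2-T23, H2-Q4 and Tapbp fell, 4 of 10 members, where 3.04% of all tested genes were called lower. In 8 of 10 members the 3 Ulk1OV libraries lay below the 3 of WT, against 14.5% of all tested genes. The median log2 fold change of the members was -0.58, beside 0.00 over all tested genes. B2m at 0.19 ± 0.12 was the member above 0. The 4 calls depended on single libraries: none was called when WT replicate 1, WT replicate 2 or Ulk1OV replicate 3 was left out. The same held for the whole table, since each of these fits called 0 of all tested genes, beside 891 with all libraries. With library trends over GC content and transcript length removed, H2-T23 alone was called, at -0.86 ± 0.17 (edgeR adjusted p = 0.0279). Without either library rich in choroid plexus markers, WT replicate 3 or Ulk1OV replicate 1, H2-D1 and H2-T23 kept their calls, and H2-Q4 and Tapbp lost theirs. DESeq2 called 5 members, H2-K1 besides those 4, and 11.8% of the genes to which it gave an adjusted p.

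5xFAD;Ulk1OV against Ulk1OV asks what the 5xFAD genotype does when Ulk1 is overexpressed. It shares the Ulk1OV libraries with the comparison above, so the opposite sign is not a second observation. H2-D1, H2-T23 and Tapbp rose, 3 of 10 members, where 3.67% of tested genes were called higher. In 7 of 10 members the groups did not overlap with 5xFAD;Ulk1OV higher, against 14.2% of tested genes, and in B2m they did not overlap with 5xFAD;Ulk1OV lower, against 13.4%. The members' median was 0.63, beside -0.01 over all tested genes. None was called without Ulk1OV replicate 3 or without the first or second library of 5xFAD;Ulk1OV. Each of these fits also called 0 of all tested genes, beside 1051 with all libraries. Without the library that went against its label, H2-K1 joined the 3, at 0.61 ± 0.16 (edgeR adjusted p = 0.0351), and H2-T23 had 1.13 ± 0.19 (edgeR adjusted p = 0.00862). With GC content and length corrected, H2-D1 and H2-T23 kept their calls and Tapbp lost its own, at 0.38 (edgeR adjusted p = 0.17); Tapbp also lost it in 7 of 12 cases when 1 library was left out, Ulk1OV replicate 1 among them. DESeq2 called 4 members, H2-K1 besides those 3, and 12.2% of genes.

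In 5xFAD against WT, the amyloid genotype alone, edgeR called none of the 10 members and 0% of all tested genes. At an unadjusted p under 0.05 there were 4 members (H2-T23, B2m, Tap2 and Tapbp) and 12.4% of tested genes, and DESeq2 called 0 members and 0.835% of genes. H2-T23, Tap2 and Tapbp lay below WT without overlap, 3 of 10 members against 9.05% of tested genes. Their log2 differences were -0.66 ± 0.17 for H2-T23 (edgeR adjusted p = 0.233), -0.49 ± 0.19 for Tap2 and -0.35 ± 0.15 for Tapbp. H2-D1 differed by -0.10 ± 0.12, H2-K1 by -0.23 ± 0.15 and H2-Q4 by -0.53 ± 0.27. With GC content and length corrected H2-D1 turned to 0.06, and H2-K1 stood at -0.10, Tapbp at -0.17 and Tap2 at -0.32. The members' median was -0.30, beside 0.00 over all tested genes.

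In 5xFAD;Ulk1OV against 5xFAD, Ulk1 overexpression on the amyloid genotype, edgeR again called none of the members, where it called 0.0464% of tested genes. DESeq2 called 1 member, H2-T23, and 5.45% of genes, and 4 members had an unadjusted p under 0.05, as did 17.4% of tested genes. H2-T23 was higher without overlap (10.7% of tested genes), at 0.72 ± 0.17 (edgeR adjusted p = 0.0882), and B2m was lower without overlap (11.5% of tested genes). H2-D1 differed by 0.19 ± 0.12, H2-K1 by 0.21 ± 0.15, Tap2 by 0.41 ± 0.19 and Tapbp by 0.36 ± 0.15. With GC content and length corrected these became -0.0017, 0.04, 0.22 and 0.15 in that order, so that H2-D1 turned direction. The members' median was 0.29, beside 0.00 over all tested genes. Without the library that went against its label edgeR also called 0 members, with H2-T23 at 0.81 ± 0.19 (edgeR adjusted p = 0.0814) and B2m at -0.31 ± 0.14.

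The interaction asks whether the effect of Ulk1OV differs between the 5xFAD and the WT background. It was positive for 9 of 10 members. H2-D1, H2-K1, H2-T23, H2-Q4 and Tapbp passed the test, 5 of 10, where 6.8% of tested genes were called in that direction and 12.8% in either. H2-T23 had the largest value of the members, 1.70 ± 0.25 (log2, edgeR adjusted p = 0.0039), followed by H2-Q4 with 1.37 ± 0.39 (edgeR adjusted p = 0.0358). Tapbp had 0.95 ± 0.22 (edgeR adjusted p = 0.0164), H2-D1 0.76 ± 0.17 (edgeR adjusted p = 0.0144) and H2-K1 0.74 ± 0.21 (edgeR adjusted p = 0.0349). Among the called heavy chains the classical pair had the smaller values, a difference between genes that was not tested. B2m stood at -0.53 ± 0.17 (edgeR adjusted p = 0.0588; 5.96% of tested genes were called in that direction) and Tap2 at 0.84 ± 0.26 (edgeR adjusted p = 0.0521), neither of which passed by edgeR. DESeq2 called 7 members and 18.4% of genes, with B2m (DESeq2 adjusted p = 0.0328) and Tap2 (DESeq2 adjusted p = 0.0243) besides those 5, and edgeR called B2m lower with the replicate block (edgeR adjusted p = 0.0336) or without a filter (edgeR adjusted p = 0.00906). H2-M3 (1.14 ± 0.44), Tap1 (0.97 ± 0.36) and Nlrc5 (0.71 ± 0.58) did not pass either. With GC content and length corrected, H2-T23 kept its call at 1.42 ± 0.24 (edgeR adjusted p = 0.00804), while H2-D1 (0.40 ± 0.15), H2-K1 (0.46 ± 0.19), H2-Q4 (1.11 ± 0.38) and Tapbp (0.54 ± 0.20) lost theirs. H2-D1, H2-T23 and Tapbp were called whichever library was left out, H2-K1 and H2-Q4 lost their calls without WT replicate 3 or Ulk1OV replicate 1 among others, and the same 5 were called without the one that went against its label, with H2-T23 at 1.80 ± 0.26.

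**Figure D3:**
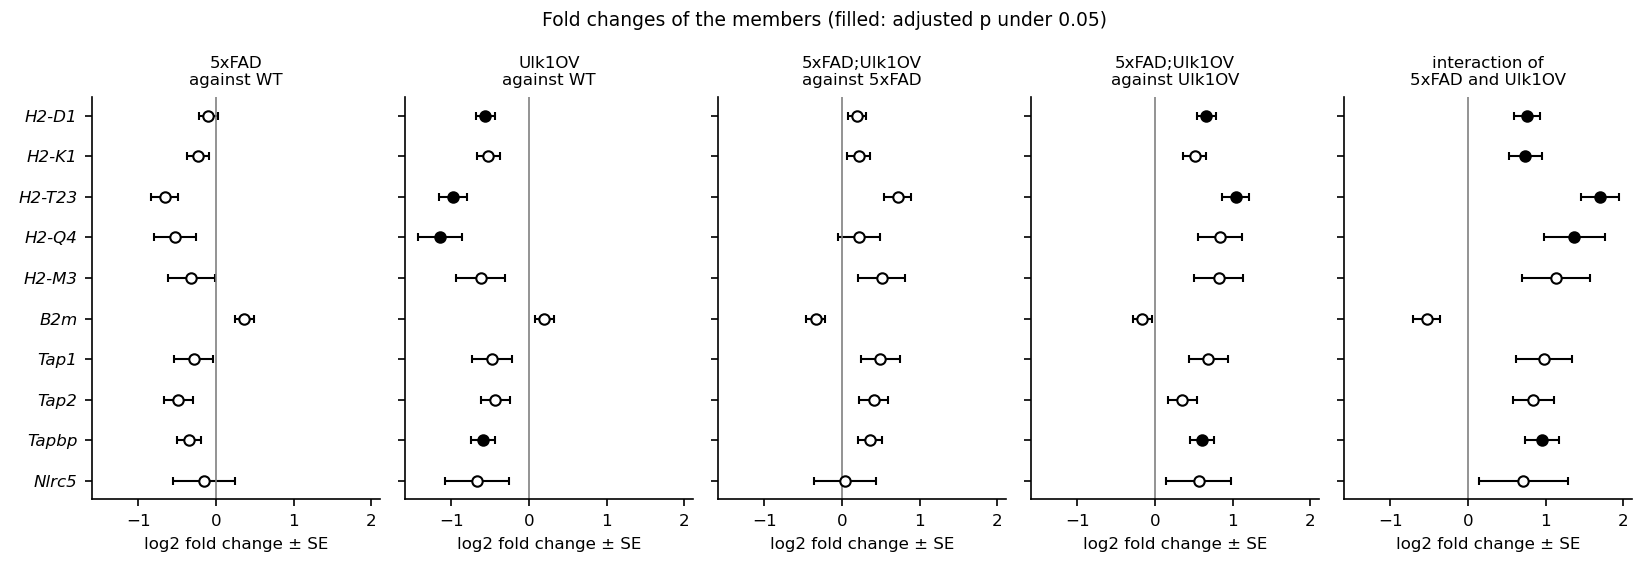
Log2 fold changes of the 10 members with SE in 4 comparisons and the interaction; filled points have an edgeR adjusted p under 0.05. H2-T23 is filled in 3 panels and B2m lies opposite to the other members in all 5.

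Across the 12 libraries, log2 CPM of the 9 members other than B2m correlated with one another at Pearson r from 0.446 (H2-T23 with Nlrc5) to 0.95 (H2-K1 with H2-Q4). B2m had a mean r of -0.143 with the others, from -0.4 with Tap2 to 0.0544 with Nlrc5. The points share their libraries and group structure, so these values describe this set of libraries. Among 15203 tested genes with a mean of at least 1 CPM, those most like the members' mean standardized log2 CPM were Chst14 (r = 0.965), Zfp707 (0.945), Tnfaip2 (0.939), Asgr1 (0.933), Id3 (0.924) and Tgm2 (0.923), all over 12 libraries. Chst14 averaged 2.65 CPM in WT libraries, 1.99 with 5xFAD alone, 1.41 with Ulk1OV alone and 2.37 with both. Asgr1 had the widest spread of these, with 4.47, 1.7, 0.673 and 4.84 CPM in the same order.

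Other class I genes moved in part with the members. Of 24 listed genes 13 were tested, and Fcgrt, the heavy chain of the neonatal Fc receptor that also pairs with B2m, fell in Ulk1OV against WT by 0.69 ± 0.17 (log2, edgeR adjusted p = 0.0375). It rose in 5xFAD;Ulk1OV against Ulk1OV by 0.69 ± 0.17 (edgeR adjusted p = 0.0326). H2-Q6 also fell in Ulk1OV, by 1.79 ± 0.48 (edgeR adjusted p = 0.0494), from 1.78 ± 0.578 CPM in WT to 0.517 ± 0.239. Fcgrt lost both calls with GC content and length corrected (edgeR adjusted p of 0.0661 and 0.0984). H2-Q6 lost its call in 3 of 6 alternatives and in 9 of 12 cases when 1 library was left out. The other 11 tested genes were not called in Ulk1OV against WT, where 3.04% of all tested genes were called lower. The list's median there was -0.26. Cd1d2, H2-M2, H2-M9 and H2-M11 had 0 counts in every library.

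A pair of chaperones that assist loading went the other way in Ulk1OV. Of 8 tested genes of peptide loading and trimming, 2 rose in Ulk1OV against WT, where 2.14% of tested genes were called higher. Pdia3, the oxidoreductase bound to tapasin, averaged 206 CPM in WT libraries, 212 with 5xFAD alone, 304 with Ulk1OV alone and 215 with both, and rose by 0.56 ± 0.11 (log2, edgeR adjusted p = 0.0251). Calr, the lectin chaperone calreticulin, averaged 319, 295, 517 and 375 CPM in that order and rose by 0.69 ± 0.16 (edgeR adjusted p = 0.0299). Pdia3 fell in 5xFAD;Ulk1OV against Ulk1OV by 0.50 ± 0.11 (edgeR adjusted p = 0.0215), where 2.43% of tested genes were called lower. Both rises kept their calls with GC content and length corrected. They lost them without WT replicate 1, WT replicate 2 or Ulk1OV replicate 3, the fits in which 0 of all tested genes were called. Both chaperones also serve many other proteins of the endoplasmic reticulum. The list's median in Ulk1OV against WT was -0.04, and Tapbp fell in the comparison in which Pdia3 and Calr rose.

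The immunoproteasome, the form of the proteasome that favours class I peptides, had 0 of 5 genes called in each of the 4 comparisons of groups. At an unadjusted p under 0.05 there were 1 in 5xFAD against WT, 2 in 5xFAD;Ulk1OV against 5xFAD, 2 in Ulk1OV against WT and 4 in 5xFAD;Ulk1OV against Ulk1OV. DESeq2 called 0, 0, 0 and 1 (Psmb8) in the same order. For this list and those that follow, 12.4% of all tested genes had an unadjusted p under 0.05 in 5xFAD against WT. In 5xFAD;Ulk1OV against 5xFAD the share was 17.4%. For the comparisons with Ulk1OV alone no such share is given here, so their counts at an unadjusted p are a description only. Psmb8 averaged 3.55 CPM in WT, 2.99 with 5xFAD alone, 2.27 with Ulk1OV alone and 4.26 with both. Psmb10, with 35.8, 28.4, 28 and 35.5 CPM, passed the test in the interaction (0.68 ± 0.20, edgeR adjusted p = 0.0424), but with GC content and length corrected it stood at 0.24 (edgeR adjusted p = 0.457). Of 12 promoter factors (the RFX, CREB, NF-Y, IRF and NF-kappaB genes), 0 were called by edgeR in the comparisons of groups, with 1, 2, 2 and 3 at an unadjusted p under 0.05 in that order. DESeq2 called Rela, an NF-kappaB subunit, lower in Ulk1OV against WT and higher in 5xFAD;Ulk1OV against Ulk1OV. By edgeR Rela passed in the interaction (0.61 ± 0.16, edgeR adjusted p = 0.0246), but with GC content and length corrected it stood at 0.11 (edgeR adjusted p = 0.752). Rela averaged 26, 22, 20.3 and 26.3 CPM in the order of groups above.

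Interferon receptors and their kinases and STATs showed a median near 0 in Ulk1OV against WT (-0.02), with 0 of 10 called by edgeR, 3 at an unadjusted p under 0.05 and 1 by DESeq2. Ifnar2, a subunit of the type I interferon receptor, rose in 5xFAD;Ulk1OV against Ulk1OV by 0.59 ± 0.15 (log2, edgeR adjusted p = 0.0375), a call that ended with GC content and length corrected (edgeR adjusted p = 0.0628) and in 7 of 12 cases when 1 library was left out. All 15 interferon-induced genes had a log2 fold change below 0 in Ulk1OV against WT, with a median of -0.47, beside 49.6% of all tested genes below 0. Bst2, the antiviral membrane protein tetherin, was the 1 called, from 6.67 ± 1.2 to 3.35 ± 1.27 CPM (edgeR adjusted p = 0.0467, and 0.0732 with GC content and length corrected). Its call ended in 9 of 12 cases when 1 library was left out, and 3.04% of all tested genes were called lower in that comparison. In 5xFAD against WT the same 15 genes had a median of -0.16 with 5 above 0. Of 7 class II genes, which present to CD4 T cells, 0 were called by edgeR in any comparison of groups. In the order above, 5, 2, 3 and 3 had an unadjusted p under 0.05, beside 12.4% and 17.4% of all tested genes in the first 2 comparisons. DESeq2 called 0, 1, 2 and 1. In the interaction edgeR called 3, each higher, beside 6.8% of all tested genes called in that direction. H2-Eb1 was at 5.29 CPM in WT, 1.74 with 5xFAD alone, 1.45 with Ulk1OV alone and 5.82 with both, and had an interaction of 3.61 ± 0.82 (edgeR adjusted p = 0.0154). Of 12 genes of class I receptors and of T or natural killer cells, Pirb alone had enough counts to be tested, and the list summed to 0.842 to 2.76 CPM.

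**Figure D4:**
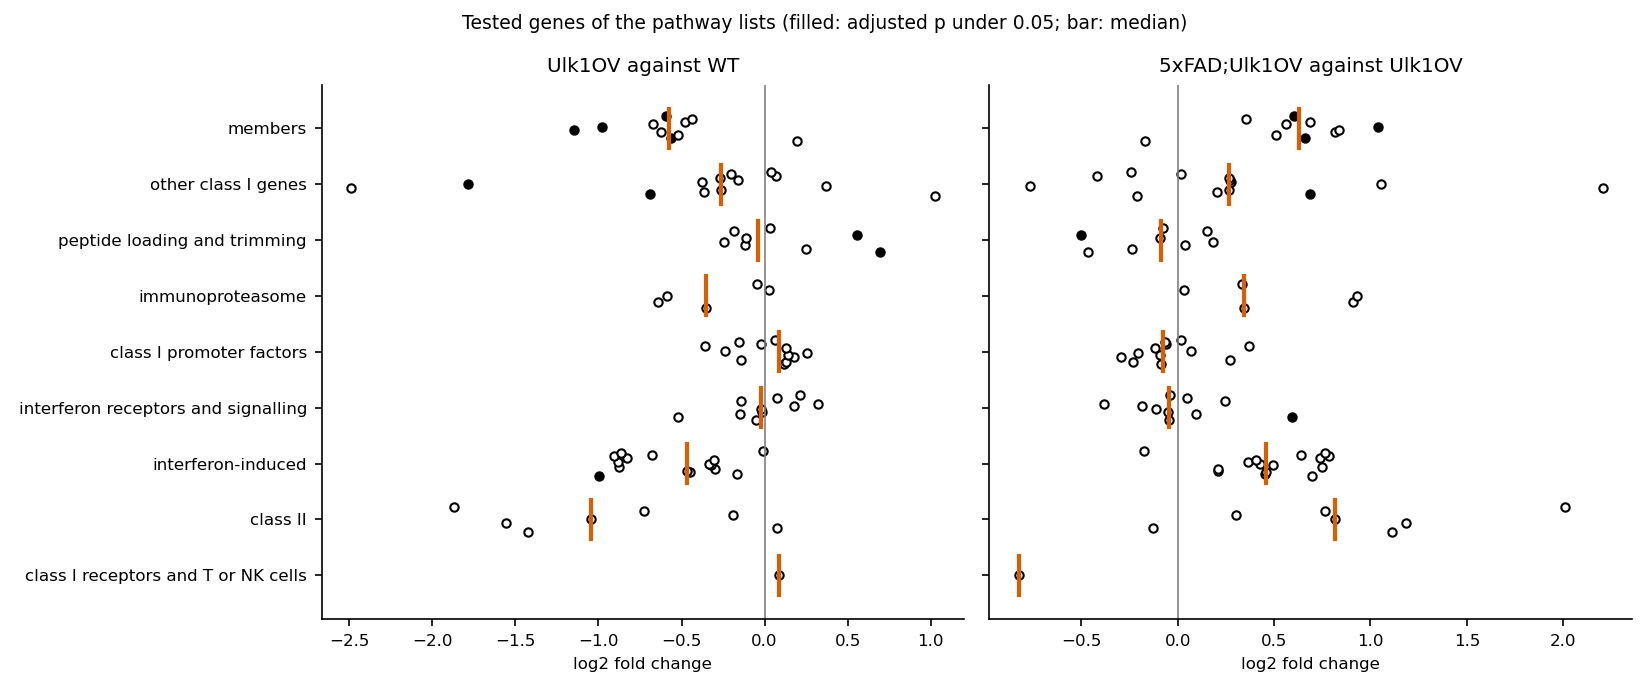
Log2 fold changes of every tested gene of the members and 8 pathway lists in Ulk1OV against WT and in 5xFAD;Ulk1OV against Ulk1OV; filled points have an edgeR adjusted p under 0.05 and bars are list medians. All 15 interferon-induced genes lie below 0 in the first panel, in which Pdia3 and Calr are the filled points above 0.

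Most members lie in the MHC region of chromosome 17. Between H2-K1 and H2-M3, 84 tested genes were neither members nor genes with an H2 symbol. Class I genes under other symbols were not taken out, and neither was Psmb9 of the immunoproteasome, which overlaps Tap1. Of these, 3 were called in Ulk1OV against WT, each lower, beside the 3.04% of all tested genes. The log2 fold change of 60 of the 84 was below 0, beside 49.6% of all tested genes, with a median of -0.16. In 5xFAD;Ulk1OV against Ulk1OV 5 were called, each higher, beside 3.67% of all tested genes, with a median of 0.16. These medians had the sign of the members' medians, -0.58 and 0.63, and were smaller. Members outside that region were Tapbp, which lies beside it, and B2m and Nlrc5 on other chromosomes.

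Markers of several cell types of vessels and meninges moved with the members. Meningeal fibroblast markers (9 genes, all detected in every library) summed to 223 to 331 CPM in WT libraries, 109 to 209 with 5xFAD alone, 119 to 159 with Ulk1OV alone and 153 to 341 with both. In Ulk1OV against WT, 7 of 9 were called lower, beside 3.04% of all tested genes. In 5xFAD;Ulk1OV against Ulk1OV, 6 of 9 were called higher, beside 3.67% of all tested genes. The share of 3.04% also applies to the endothelial, perivascular and mural calls that follow. Endothelial markers (10 genes) summed to 67.5 to 93.6, 49.6 to 70, 56.6 to 69.3 and 65.9 to 89.9 CPM, with 2 of 10, Esam and Tek, called lower in Ulk1OV against WT. Perivascular macrophage and leukocyte markers (9 genes) summed to 109 to 147, 103 to 121, 67.7 to 89.7 and 111 to 140 CPM, of which Coro1a was called lower in Ulk1OV. Mural cell markers (7 genes) summed to 156.1 to 206.6, 96.7 to 158.5, 105.2 to 122.4 and 134.2 to 211.5 CPM, with 2 of 7 called lower in Ulk1OV against WT. Choroid plexus markers did not follow the members: they were high in 1 WT and 1 Ulk1OV library, as given above, and edgeR and DESeq2 called 0 of 7 in each comparison, with 5 at an unadjusted p under 0.05 in 5xFAD against WT and 0 in the others. Microglial markers summed to 574 to 667, 570 to 699, 549 to 671 and 593 to 664 CPM. In Ulk1OV against WT 0 of 10 were called by edgeR or DESeq2, and 1 had an unadjusted p under 0.05. By edgeR 1 was called lower in 5xFAD;Ulk1OV against Ulk1OV (2.43% of tested genes). In the interaction 1 was called higher and 1 lower (12.8% in either direction). DESeq2 called P2ry12 and C1qa, 1 higher and 1 lower, in both of these and in 5xFAD;Ulk1OV against 5xFAD. The share of counts from the mitochondrial genome was 5.05% to 5.42% in WT libraries, 5.52% to 6.98% with 5xFAD alone, 6.4% to 8.76% with Ulk1OV alone and 4.04% to 5.97% with both. The part of these cell markers and of the mitochondrial share in the members' differences was not tested. In the library labelled 5xFAD;Ulk1OV replicate 3, fibroblast markers summed to 153 CPM, within the range of Ulk1OV, while H2-T23 stood at 12.8 CPM, within the range of WT.

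**Figure D5:**
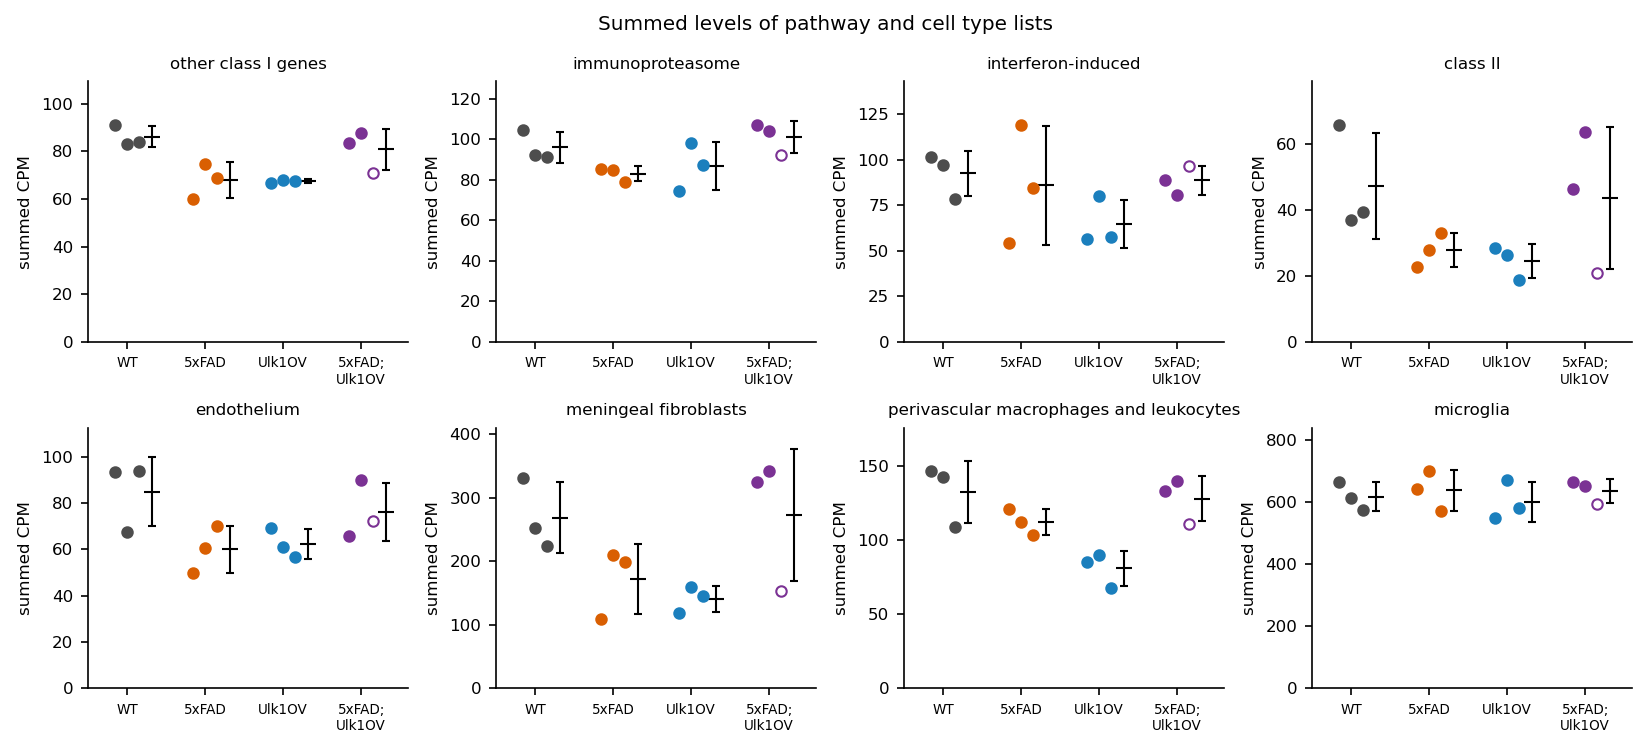
Summed CPM of 4 pathway lists and 4 cell type lists in each library (points), with group mean and SD (bars, n = 3); the open circle is the library labelled 5xFAD;Ulk1OV replicate 3. Fibroblast, endothelial and perivascular markers are lower in Ulk1OV than in WT on average, and microglial markers overlap in all groups.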

How the data were processed

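Total RNA of mouse hippocampus was made into libraries with a NEBNext Ultra kit, per the labels' protocols. The authors deposited 1 table of read counts per gene, not normalized. The submitters' processing notes name HISAT2 and featureCounts, besides FastQC, Trim Galore, SAMtools and DESeq2, and mm10 as build, with no version or role. Settings, annotation, strand use and treatment of reads with several matches were not stated in the sources used here. Of the table's 54427 genes, 22784 had no count in any library.

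From the deposited counts, filterByExpr of edgeR 4.0.16 (R 4.3.3) kept 17227 genes, and library sizes were TMM-scaled. A quasi-likelihood fit took in the 12 libraries together, each group having its own mean and all sharing the spread. Genes were called at a Benjamini-Hochberg adjusted p under 0.05, and an SE was derived from the log2 fold change and its F statistic. CPM are on TMM-scaled library sizes, and values per kb use the union of GENCODE M21 exons on GRCm38, the build called mm10. With 3 libraries a group, the smallest two-sided p of an exact permutation test is 0.1, and so genes were tested in the model over all genes. Within groups, the 12 pairs of libraries had chi-square values of 7.25 to 30.2 per degree of freedom, above sampling noise.

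The members and lists were chosen with earlier results of these data known. All 10 members were named in each comparison. Each pathway list named up to 2 tested genes with the smallest p, and likeness was ranked over genes with a mean of at least 1 CPM, with a prior count of 2 on the log scale. App, Ulk1, Atp5k, the marker genes and genes that share exons or sequence with a member were named beyond that rule.

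The edgeR test was tried on simulated counts; of genes changed 2-fold it recovered 58.2% for Ulk1OV against WT among 16970 genes and 40.3% for the interaction among 16963. Of genes changed 1.5-fold it recovered 23.9% and 1.49%. Of all its calls there, 8.13% and 5.13% fell on genes that had not been changed. Results were recomputed with DESeq2 1.42.0, with its size factors in edgeR, unfiltered, with a replicate block, with each library's loess trend (span 0.4) over GC content and length removed (99.3% of tested genes), on the 6 libraries of a comparison, and with 1 library left out at a time. For genes named from the pathway lists, these were added after the data were seen. Replicate numbers did not pair the libraries.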

Additional observations from a re-analysis of the deposited data

Results flagged for a closer look

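The effect of Ulk1OV differed between the WT and 5xFAD backgrounds by the interaction term in edgeR (adjusted p under 0.05) in 5 members: H2-D1 (0.76, log2), H2-K1 (0.74), H2-T23 (1.70), H2-Q4 (1.37) and Tapbp (0.95). Of the genes named from the pathway lists, up to 2 per list, the same test called 11. This is not the count of all called pathway genes: among class II genes 3 were called. Among class I genes and their processing these were H2-T22 (0.59), Fcgrt (1.18) and Psmb10 (0.68), and the loading chaperones Canx (-0.37) and Pdia3 (-0.54) with the opposite sign. Among regulators they were Rela (0.61), Ifnar2 (0.77) and Jak2 (-0.61). Among response genes they were Isg15 (1.94), H2-Aa (2.47) and H2-Eb1 (3.61). In this term 12.8% of all tested genes were called. With GC content and length corrected, H2-T23 was the member that kept its call, and Fcgrt and H2-Eb1 were the named pathway genes that did. The other 9 named pathway genes lost theirs, with Canx at -0.11 and Jak2 at -0.39. With the replicate block Isg15 and H2-Aa lost theirs.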

How the results depend on the processing

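Members called numbered 0 in 5xFAD against WT, 0 in 5xFAD;Ulk1OV against 5xFAD, 4 in Ulk1OV against WT, 3 in 5xFAD;Ulk1OV against Ulk1OV and 5 in the interaction. Without a filter on low counts the first became 2 (H2-T23 lower and B2m higher) and the second 1, and with DESeq2 the second became 1. With the GC and length correction the third became 1 and the interaction 1. Over all genes, 5xFAD against WT went from 0 calls to 551 without a filter, 2 on its 6 libraries and 136 by DESeq2. 5xFAD;Ulk1OV against 5xFAD went from 8 to 18 with DESeq2's size factors, 901 without a filter, 721 by DESeq2, and 0 with the GC and length correction or on 6 libraries. Ulk1OV against WT went from 891 (368 higher, 523 lower) to 2079 without a filter, 1856 by DESeq2 and 498 with the correction (273 higher, 225 lower). 5xFAD;Ulk1OV against Ulk1OV went from 1051 to 2097, 1992 and 373 in that order, and to 430 on 6 libraries. The interaction went from 2197 to 902 with the correction. Leaving out 1 library gave 0 to 0, 0 to 0, 0 to 5, 0 to 5 and 3 to 7 members in the order above, and 0 to 39, 0 to 260, 0 to 1294, 0 to 1629 and 974 to 2596 genes. Fewer libraries leave less power, and otherwise the cause was not tested.

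Replicate numbers are shared between groups in the labels, but same-numbered libraries deviated together with r over 0.1 in 4 of 18 pairs, and a library correlated best with its own number in 12 of 36 combinations. A fit with the replicate block called 0, 0, 4, 3 and 6 members and moved the 8 genes of 5xFAD;Ulk1OV against 5xFAD to 0. Of 890 values of single members under all alternatives, 805 kept their side of the threshold, 60 lost a call and 25 gained one. The sign turned in 5, none of them called, and 32 moved by over 1 SE, 16 of them with the GC and length correction. Of 331 such values of 19 calls of genes named from pathway lists, 196 kept the call, 135 lost it and 0 reversed. In the interaction, leaving out 1 library ended the call of H2-K1 in 7 of 12 cases and of H2-Q4 in 8. Nlrc5 rested on 10 to 34 counts per library.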
